A study of Mus musculus with 16 samples.

Results

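The response of mouse mast cells to IgE and antigen was measured while an agonist antibody engaged TIM-3, an immune receptor encoded by Havcr2. The comparison set the Cy5 channel of 4 arrays of IgE/antigen-activated cells against the Cy5 channel of 4 arrays of resting cells, both taken 2 h after the antibody was added. These 8 samples are 8 of the 32 labelled samples (both dyes of 16 two-colour arrays) of a study that asked how TIM-3 stimulation affects gene expression in activated mast cells. All cells derived from mouse bone marrow, cultured in medium with 10% serum for over 4 weeks. The medium held 40 ng/ml of stem cell factor and 5 ng/ml of interleukin 3. Activated cells had received anti-DNP IgE (5 ug/ml) for 1 h, then the antigen DNP-HSA (100 ng/ml) together with the polyclonal goat antibody against TIM-3 (15 ug/ml). Resting cells had received the same antibody at the same dose and neither IgE nor antigen, so effects of IgE loading and of antigen cannot be told apart. The labels name no mouse strain. Nor do they tie each replicate to its own culture or mouse, so a p-value here reflects only how far these samples vary, and that variation may be technical. RNA of anti-TIM-3-treated cells always carried Cy5. A gene's dye bias is therefore shared by both sides of this comparison, which is made across arrays.

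Mast cells are tissue-resident immune cells that carry IgE on the high-affinity receptor Fc-epsilon-RI. When antigen cross-links that IgE, the kinases Lyn, Fyn and Syk start a cascade through calcium, MAP kinases and NF-kappaB, stored granules are released, and new cytokine, chemokine and prostaglandin genes are transcribed. TIM-3 is best known as an inhibitory receptor of exhausted T cells and is also carried by myeloid cells and mast cells.

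The median Cy5 intensity of a spot was between 79.95 and 111.1 on these 8 arrays, over a local background of 38 to 43. The share of spots well above background was 57.2% to 67.7%. No spot was saturated (0 on each array), and the number of arrays limits the precision. Replicates of a group correlated at 0.994 to 0.997 over genes, which are not independent replicates, against at most 0.981 between the groups. All 18 mast cell markers examined were well above background on all 8 arrays, with summed levels of 1196181 to 1208078 in activated cells and 1289014 to 1402983 in resting cells. Markers of macrophages and dendritic cells were present too: 17 of 20 were well above background on all 8 arrays. Their summed level differed more between replicate numbers than between the groups, and number 2 was lowest in both. It was 109760, 46045, 80824 and 121086 in activated replicates 1 to 4, against 133077, 49381, 89325 and 138397 in resting replicates 1 to 4. None of the 18 macrophage markers tested was called (0 of 18 in limma's fit), against 47.9% of all genes. Their changes ran from −0.29 to 0.91 (log2), beside that spread between replicate numbers, so a missing call does not show that they were unchanged. With the level of these same markers as a covariate, chosen after seeing the data, 3 were called higher and 1 lower.

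Of 16541 genes tested with limma's moderated test, 7924 differed at a Benjamini-Hochberg adjusted p under 0.05 (47.9%). The fit called 2837 higher (17.2%) and 5087 lower (30.8%), yet the larger changes were mostly rises. At least 2-fold changes comprised 507 higher genes (3.07%) and 313 lower genes (1.89%), and 145 rises but 4 falls exceeded 4-fold. The split of calls depends on the scaling. Higher genes made up 35.8% of calls after quantile normalization, against 60.8% after median scaling, which called 1541 higher and 995 lower. They made up 38.3% after loess normalization and 41.7% on Agilent's processed signal. Median scaling shifts each array by its median after background correction, which was 7.69 (log2) on resting replicate 4. On the other arrays at 2 h it was 6.72 to 7.08. Before background correction, resting replicate 4 had the lowest median intensity of the arrays at 2 h (79.95). How far that array alone moved the results under median scaling was not tested. For the gene lists below, the counts under median scaling stand beside the main ones where the falls are affected. With slide as a block, 2664 genes were higher and 4922 lower. Slides 2 and 3 held 2 activated arrays and 1 resting array each. Within them 99.8% and 99.1% of the higher calls and 99.8% and 99.4% of the lower calls had the same sign, on the arrays from which the calls were made. These are populations of cells, in which fewer cells of a type and less RNA per cell cannot be told apart.

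**Figure D1:**
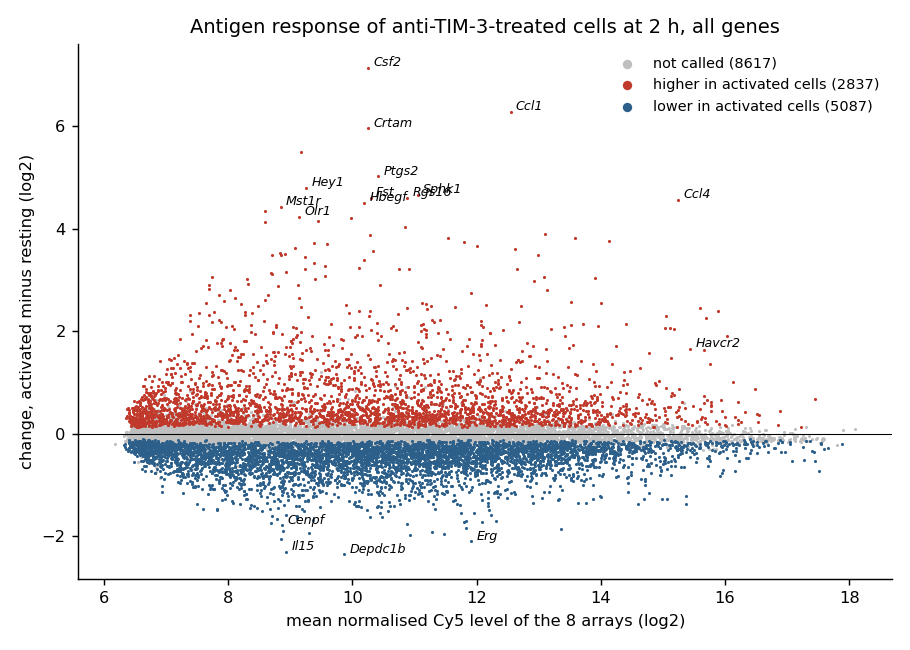
Change between activated and resting anti-TIM-3-treated cells at 2 h (y axis, log2, activated minus resting) against the mean normalised Cy5 level of the 8 arrays (x axis, log2), one point per gene. Red points are the 2837 genes called higher, blue points the 5087 called lower and grey points the genes not called. The rises reach 7.13 (Csf2) and the falls −2.36 (Depdc1b).

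Among genes well above background on at least 3 arrays of each group, the largest rise was that of Csf2 on chromosome 11, the gene of the granulocyte-macrophage growth factor GM-CSF. Its normalised Cy5 level (log2) was 13.80, 13.95, 13.55 and 13.94 on the 4 activated arrays, against 6.70, 6.77, 6.59 and 6.66 on the 4 resting arrays. All activated arrays lay far above all resting arrays, and the change of 7.13 ± 0.09 (SE, adjusted p = 6.62e-18 in limma) is a 140.1-fold rise. Ccl1, a chemokine that attracts CCR8-bearing cells, followed with 15.72, 15.72, 15.46 and 15.84 in activated cells, against 9.37, 9.20, 9.55 and 9.49 in resting cells (77.7-fold, adjusted p = 1.98e-16). Crtam, a surface receptor induced on activated T and NK cells, was at 12.99, 13.44, 13.18 and 13.31 in activated cells, against 7.30, 7.29, 7.18 and 7.31 in resting cells (62.2-fold, adjusted p = 8.33e-17). The spread within either group was small beside these differences. Ptgs2, the inducible cyclooxygenase of prostaglandin synthesis, was at 12.94, 12.82, 12.77 and 13.17 in activated cells, against 8.41, 7.69, 7.61 and 7.91 in resting cells, a rise of 5.02 ± 0.16 (SE, 32.5-fold, adjusted p = 8.80e-13).

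The next 8 rises of genes measured in this way on both sides came from several functional classes. Il2 and Il3, well above background on fewer resting arrays, are given with the cytokines. Hey1, a Notch-responsive transcriptional repressor, rose 27.8-fold. Sphk1, the kinase that makes sphingosine-1-phosphate, rose 25.3-fold, and Fst, the secreted activin antagonist follistatin, rose 24.3-fold. Rgs16, which shortens G protein signals, rose 24.2-fold. Ccl4, a chemokine that attracts immune cells, rose 23.7-fold. Hbegf, a ligand of the EGF receptor, rose 22.6-fold. Mst1r, a receptor tyrosine kinase, and Olr1, a scavenger receptor for oxidised lipoprotein, rose 21.4-fold and 18.7-fold. In the plot of the largest rises and falls by array, no activated array overlapped a resting array for any of the 24 genes. That was a condition of their choice, which 15.9% of all genes met upward and 29.5% downward.

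**Figure D2:**
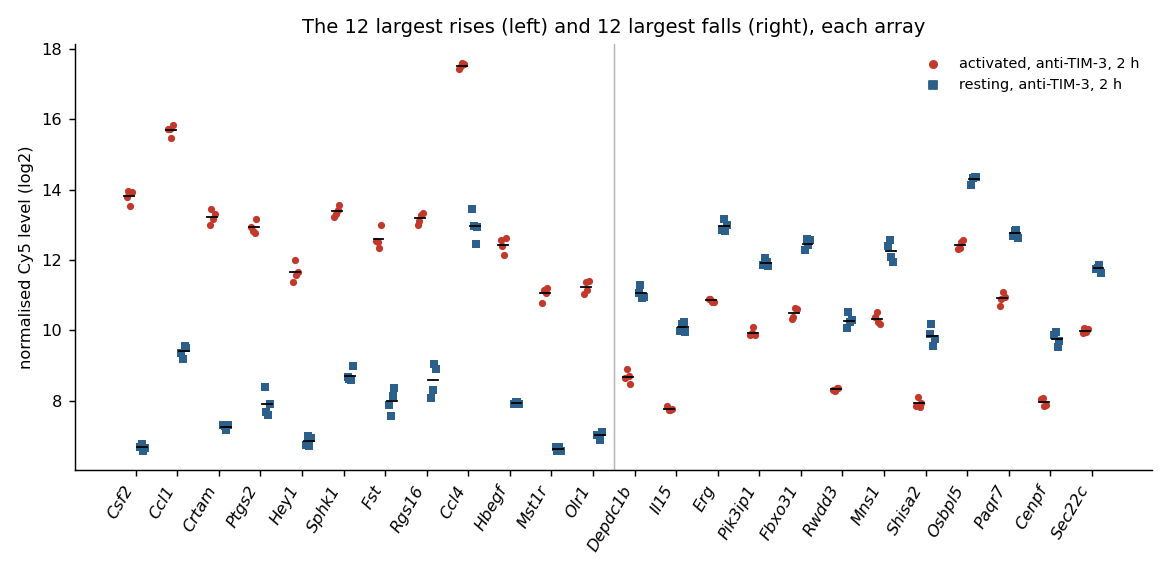
Normalised Cy5 level (y axis, log2) of the 12 genes with the largest rises and the 12 with the largest falls, among those well above background on at least 3 arrays of each group, on each array, with activated arrays as red circles left of resting arrays as blue squares and black bars at the group means (n = 4 each). Every red group lies apart from its blue group, above it for the rises and below it for the falls.

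A further set of genes was well above background on all 4 activated arrays and on none of the resting arrays, so that their rises are given as lower bounds. These bounds take the resting values nearly as measured. For Il31 the bound and the estimated change were both 2.90 (log2), and for Areg they were 3.03 and 3.05. The bounds therefore carry the error of the estimates. Of the 16542 genes kept by detection in either group, 76 were well above background on no resting array and 149 on no activated array. Areg, the EGF family ligand amphiregulin, was at 9.33, 9.24, 9.06 and 9.44 in activated cells, against 6.22, 6.23, 6.20 and 6.23 in resting cells, which were not well above background. It was at least 8.17-fold higher. The itch cytokine gene Il31 was at least 7.49-fold higher, and the orphan nuclear receptor gene Nr4a3 at least 7.02-fold. Crabp2, a carrier of retinoic acid, and Aldh1a3, an enzyme that makes it, were at least 4.93-fold and 4.56-fold higher. Rhpn2, the glutaminase gene Gls2 and the Ras-like gene Rasl11b had bounds of 3.57-fold, 2.39-fold and 2.19-fold.

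The promoters of the strongest rises are printed here because these genes moved together. Of the 12 genes, 7 are in the RefSeq promoter table, 5 of them with a single start. The window of Rgs16 holds no match to any motif searched and is not printed. The 250 bases before the start of the other 4 are given 5′ to 3′ on the gene's strand (build GRCm38.p6). Capitals mark matches on either strand to 5 motifs. The AP-1 word is TGANTCA, with N for any base, and the NFAT core is GGAAA. The NF-kappaB-like word is a run of 3 G, then 3 bases of any kind, then TTCC, and can overlap an NFAT core. The CRE-like word is TGACGT and the TATA box is TATAAA, and neither occurs in these 4 windows.
Csf2, chr11:54249900-54250149, minus strand: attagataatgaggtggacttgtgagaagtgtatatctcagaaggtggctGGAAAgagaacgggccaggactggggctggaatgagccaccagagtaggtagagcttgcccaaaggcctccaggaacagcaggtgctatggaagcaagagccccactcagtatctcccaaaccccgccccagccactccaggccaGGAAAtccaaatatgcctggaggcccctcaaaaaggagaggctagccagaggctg
Ccl1, chr11:82179813-82180062, minus strand: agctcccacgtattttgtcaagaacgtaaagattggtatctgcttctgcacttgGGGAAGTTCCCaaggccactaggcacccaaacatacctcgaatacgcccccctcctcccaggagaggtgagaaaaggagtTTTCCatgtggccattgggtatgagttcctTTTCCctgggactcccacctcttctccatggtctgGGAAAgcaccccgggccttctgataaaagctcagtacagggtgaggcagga
Ptgs2, chr1:150099781-150100030, plus strand: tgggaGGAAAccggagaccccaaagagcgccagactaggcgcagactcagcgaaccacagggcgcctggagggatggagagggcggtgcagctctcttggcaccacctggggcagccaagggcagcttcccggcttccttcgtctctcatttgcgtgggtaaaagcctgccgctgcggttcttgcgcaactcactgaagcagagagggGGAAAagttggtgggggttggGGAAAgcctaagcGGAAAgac
Olr1, chr6:129507166-129507415, minus strand: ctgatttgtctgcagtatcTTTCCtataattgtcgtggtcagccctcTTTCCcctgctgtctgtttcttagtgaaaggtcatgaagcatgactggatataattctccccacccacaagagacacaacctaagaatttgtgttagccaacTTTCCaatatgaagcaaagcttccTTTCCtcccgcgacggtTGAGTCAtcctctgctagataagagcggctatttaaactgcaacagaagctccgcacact

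The window of Ccl1 holds the NF-kappaB-like word on both strands in overlapping positions, 186 to 196 bases before the start, and 3 NFAT cores. Such an NF-kappaB-like word occurs in 4.65% of all 32851 promoter windows of that length in the table. Olr1 has 1 AP-1 word, between 54 and 60 bases before its start, and 4 NFAT cores, while an AP-1 word occurs in 6.75% of all windows. Ptgs2 has 4 NFAT cores and Csf2 has 2, and 55.6% of all windows hold at least 1. Counting genes with the word at any listed start, 6 of the 7 largest rises in the table had an NFAT core, 2 an AP-1 word and 2 an NF-kappaB-like word. Among the 10 largest falls in the table the numbers were 6, 0 and 0. Over all 27025 genes of the table, the shares are 58.8%, 7.82% and 5.31%. Genes with more starts have more chances in such a count. The 7 rises have 12 listed starts, the 10 falls 15 and all 27025 genes 32851. Sphk1, with 5 starts, was counted for the AP-1 word (at 2 of them) and the NF-kappaB-like word (at 1). A match describes the sequence and is not a binding site.

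Cytokine genes formed the most strongly induced group. Of 29 measured, 23 rose and 1 fell, against background shares of 17.2% and 30.8%, and the median change was 1.54 (log2) beside −0.06 for all genes. Of the 29, 8 were well above background on fewer than 3 resting arrays and passed the filter only through the activated arrays. That filter favoured their rise, and 1 member passed only through the resting arrays. Among the next lists, 2 chemokines, 2 activation receptors, 2 early-response factors and 1 TNF ligand passed only through the activated arrays. Another 2 TNF ligands passed only through the resting arrays. The type 2 cytokines of allergy were among the genes that rose. Il4 was at 14.54, 14.40, 14.16 and 14.58 in activated cells, against 10.72, 11.10, 10.56 and 10.89 in resting cells, a 12.1-fold rise (adjusted p = 1.03e-12). Il13 rose by 3.53 (adjusted p = 9.08e-15). Il5 and Il9 reached only 7.29 ± 0.25 and 7.09 ± 0.17 (SD, n = 4) in activated cells and were not well above background in resting cells, with bounds of 2.12-fold and 1.86-fold. Growth factors for T cells and haematopoietic cells rose steeply from low levels: Il2 was at 11.67, 12.02, 11.82 and 12.14 in activated cells, against 6.33, 6.47, 6.42 and 6.45 in resting cells, of which 1 was well above background. That is a 45.2-fold rise (adjusted p = 4.73e-17), and Il3, itself a growth factor in the medium of these cells, rose 20.3-fold (adjusted p = 1.31e-16).

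Other induced cytokines act on neighbouring tissue. The alarmin Il33 rose 11.2-fold and the stromal cytokine Il11 rose by 3.15 on the log2 scale. Il6, which drives the acute phase response, was at 16.77, 16.86, 16.70 and 16.93 in activated cells, against 14.31, 14.49, 14.30 and 14.38 in resting cells (5.45-fold, adjusted p = 1.95e-13). Il1a, Il1b and Vegfa, the endothelial growth factor, rose by 2.38, 2.17 and 2.05. Ifng rose 2.90-fold from a resting level that was well above background on 1 of 4 arrays. Il15, a cytokine that sustains NK and memory T cells, was the exception. It was at 7.85, 7.75, 7.74 and 7.78 in activated cells, against 10.00, 10.18, 10.23 and 9.96 in resting cells, a 4.96-fold fall (adjusted p = 2.95e-13). Il10, the regulatory cytokine, rose by 0.20, which median scaling did not call, and Il18, Il27, Il12a, Osm and Pdgfb were not called (−0.13 to 0.04).

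Chemokines rose in 14 of 22 members and fell in 0, with a median of 0.85. Besides Ccl1 and Ccl4, the lymphocyte attractant Xcl1 rose by 4.13, the monocyte attractant Ccl7 by 3.75 and the neutrophil attractants Cxcl2 and Cxcl3 by 3.62 and 1.91. Ccl3 was at 16.83, 16.85, 16.83 and 16.80 in activated cells, against 14.69, 14.50, 14.41 and 14.69 in resting cells (4.78-fold, adjusted p = 4.02e-11). Ccl24 and Ccl9 rose by 2.21 and 1.70. The interferon-inducible Cxcl10 and Cxcl11 (0.91 and 0.42) did not pass the test, nor did Ccl5, Ccl22 and Pf4.

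Of 13 TNF superfamily ligands, 9 rose and 1 fell. Tnf, the founding inflammatory member, was at 14.99, 15.13, 14.89 and 15.22 in activated cells, against 11.27, 10.86, 11.33 and 11.15 in resting cells, and rose 15.0-fold (adjusted p = 1.02e-13). Tnfsf14, the OX40 ligand gene Tnfsf4 and the death ligand gene Tnfsf10 rose by 2.05, 1.96 and 1.93, while the 4-1BB ligand gene Tnfsf9 fell by 0.47, or 7 and 0 after median scaling. Receptors that mark activated lymphocytes and mast cells rose in 11 of 17 and fell in 1. Crtam led them, followed by the TNF receptor gene Tnfrsf1b (1.70), the maturation marker Cd83 (1.53), the 4-1BB gene Tnfrsf9 (1.30), the adhesion receptor Cd44 (1.25) and the interleukin 2 receptor chain Il2ra (1.06). Cd69, an early activation marker of lymphocytes, fell by 0.30, and after median scaling 9 members were higher and 0 lower.

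Early-response transcription factors, which carry a signal from the membrane to later genes, rose in 26 of 36 and fell in 6 (median 0.72). Egr3 was at 12.75, 12.92, 12.76 and 13.04 in activated cells, against 8.90, 8.92, 8.54 and 8.97 in resting cells (16.4-fold, adjusted p = 5.85e-12). Nr4a1, the orphan receptor Nur77, rose 14.1-fold, and Maff, Egr2, Nfil3, Csrnp1 and Fosb rose by 3.24, 3.05, 2.98, 2.81 and 2.53. Several of the factors induced earliest by most stimuli stood lower at 2 h. Ier2 was at 13.19 ± 0.01 in activated cells, against 14.06 ± 0.12 in resting cells (SD, n = 4 each), a 1.83-fold fall (adjusted p = 3.59e-09). Fos was at 7.75, 7.86, 7.68 and 8.20 in activated cells, against 8.70, 8.37, 8.49 and 8.48 in resting cells (−0.64, adjusted p = 2.02e-04), and Egr1 changed by −0.50 (adjusted p = 0.00521). Median scaling called none of these 3 falls (Ier2 −0.61, Fos −0.53, Egr1 −0.22), with 24 members of the list higher and 0 lower.

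NF-kappaB subunits and inhibitors rose in 10 of 15 and fell in 2 (median 0.95). The inhibitor genes Nfkbid and Nfkbia, themselves targets of the factor, rose 7.50-fold and 4.34-fold, and the subunit genes Rel, Relb, Nfkb1 and Nfkb2 rose by 1.83, 1.61, 1.52 and 0.95, while Rela was at −0.18 and was not called. The kinase genes Ikbkb and Ikbke fell by 0.49 and 0.48, and after median scaling 9 members were higher and 0 lower. The feedback regulators Tnip3, Zc3h12c and Tnfaip3 rose by 2.64, 2.14 and 1.12 in a list of which 11 of 18 rose and 4 fell, or 10 and 1 after median scaling. Regulators that restrain MAP kinase and growth factor signals rose in 13 of 19 and fell in 4 (median 0.82). Errfi1, an inhibitor of EGF receptor family kinases, rose 12.7-fold, the nuclear phosphatase gene Dusp2 rose 11.2-fold, and Gadd45b, Spry1 and Spry2 rose by 3.22, 2.49 and 2.22. Dusp7 fell by 0.88, and after median scaling 13 were higher and 1 lower. Of 17 SOCS and STAT5 feedback genes, 10 rose and 3 fell, with Cish at 1.01 and Pim1 and Pim3 at 0.97, or 6 and 0 after median scaling. Of 10 RGS genes tested, 2 rose and 6 fell: beside Rgs16, the mast cell marker Rgs13 fell by 0.85, and Rgs14 and Rgs12 fell by 1.14 and 1.23. After median scaling 1 was higher and 3 were lower, and Rgs13 was not called.

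**Figure D3:**
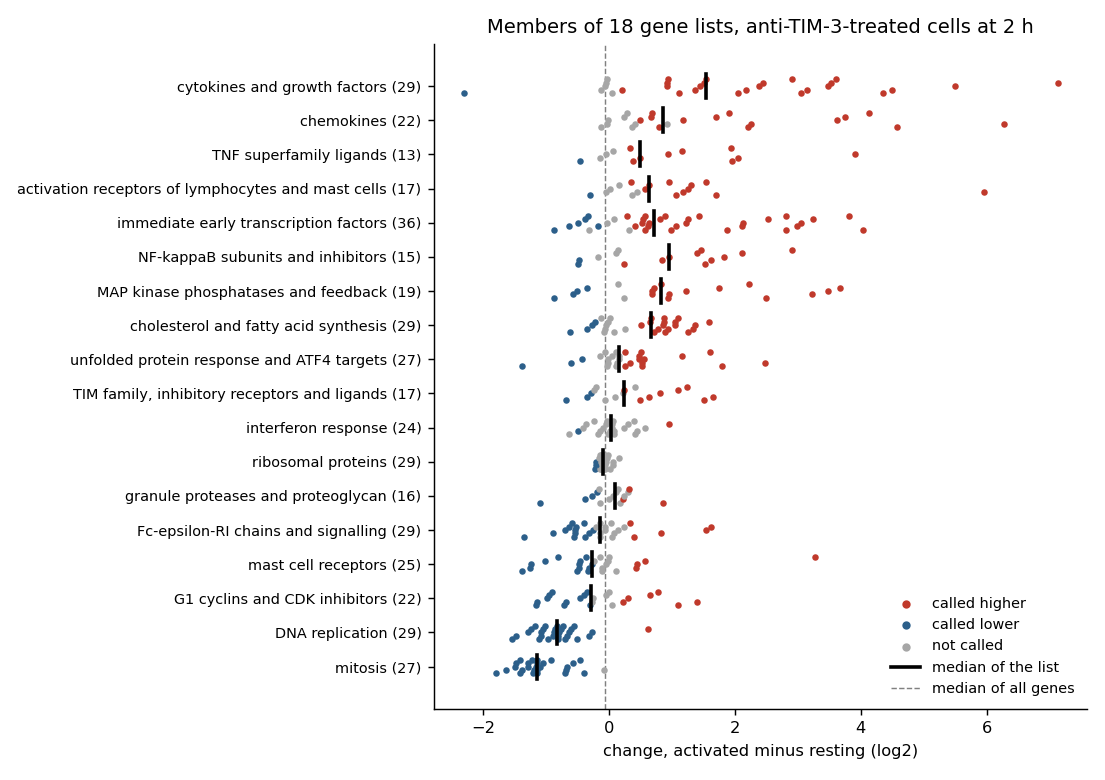
Changes of the members of 18 gene lists (x axis, log2, activated minus resting anti-TIM-3-treated cells at 2 h), one point per gene and one row per list, with the number of members tested in parentheses. Black bars are list medians and the dashed line is the median of all genes at −0.06. The medians run from 1.54 for cytokines to −1.15 for mitosis; those of Fc-epsilon-RI signalling and ribosomal proteins turn positive under median scaling.

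Genes of mediator synthesis moved in both directions. Of 11 genes of histamine and serotonin handling, 4 rose and 4 fell (36.4% each), or 3 and 1 after median scaling. Over all genes tested, 17.2% rose and 30.8% fell. In that list, 1 member passed the filter only through the resting arrays. Hdc, the histidine decarboxylase that makes histamine, was at 16.15, 16.21, 16.14 and 16.27 in activated cells, against 13.85, 13.81, 13.98 and 13.94 in resting cells (4.91-fold, adjusted p = 1.29e-13). Gch1, which supplies the cofactor of serotonin synthesis, rose 4.42-fold, whereas Ddc, an enzyme of the serotonin pathway, fell by 0.67, a fall that median scaling did not call. Among 13 genes of eicosanoid synthesis, 2 rose (15.4%) and 4 fell (30.8%), near the shares over all genes. Beside Ptgs2, Ptgs1 rose by 0.26, and the phospholipase gene Pla2g4a fell by 0.45. After median scaling 1 member was higher and 0 were lower. Of 16 granule protease and proteoglycan genes, 3 were higher (18.8%) and 4 lower (25%), or 1 and 1 after median scaling. These shares too were near those over all genes. The carboxypeptidase gene Cpa3, the chymase gene Cma1 and the tryptase genes Tpsab1 and Tpsb2 were at −0.14, −0.16, 0.14 and 0.12, and none of these was called. Ndst2, which sulphates the heparin of mast cell granules, fell by 1.10. Of 26 granule exocytosis genes, 6 rose and 11 fell, with Unc13d and Lyst at −0.98 and −0.87 and Stx11 at 0.72; after median scaling 1 was higher and 2 were lower.

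The genes of the IgE receptor and its proximal pathway moved in both directions. Of 29 measured, 5 rose and 13 fell, but under median scaling 3 were higher and 1 lower. Loess normalization gave 5 and 13, and Agilent's processed signal gave 7 and 10. Fcer1a, the IgE-binding chain, was at 16.89, 16.87, 16.76 and 16.74 in activated cells, against 17.35, 17.21, 17.53 and 17.29 in resting cells, a 1.44-fold fall (adjusted p = 6.19e-06) that median scaling did not call (−0.14, adjusted p = 0.75). Ms4a2, the beta chain, changed by −0.55, also not called under median scaling. The low-affinity IgG receptor gene Fcgr3 fell 2.56-fold, with 13.16, 13.04, 12.99 and 13.16 in activated cells, against 14.49, 14.39, 14.49 and 14.41 in resting cells (adjusted p = 1.10e-11). The inhibitory phosphatase gene Inpp5d fell by 0.89, a fall that median scaling did not call. Fyn, the Src family kinase of the pathway, was at 10.34, 10.45, 10.43 and 10.46 in activated cells, against 8.72, 8.81, 8.83 and 8.82 in resting cells (3.08-fold, adjusted p = 8.88e-12).

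Other receptors of mast cells mostly fell, 13 of 25 against 4 that rose, or 4 against 4 after median scaling. Kit, the stem cell factor receptor on which these cells depend, was at 14.68, 14.60, 14.70 and 14.72 in activated cells, against 16.00, 15.94, 16.19 and 16.09 in resting cells, a 2.60-fold fall (adjusted p = 9.84e-10). The ATP receptor gene P2rx7, the interleukin 4 receptor gene Il4ra and the basic secretagogue receptor gene Mrgprb2 fell by 1.26, 1.25 and 1.02. Siglecf, a sialic acid receptor better known from eosinophils, rose 9.67-fold, with 11.21, 11.19, 11.19 and 11.21 in activated cells, against 7.79, 7.82, 7.99 and 8.10 in resting cells (adjusted p = 4.82e-13). Among 12 markers of basophils and eosinophils on the array, 6, Siglecf included, were well above background on all 8 arrays, and Prg3, Ear1 and Alox15 stayed at background throughout. Of the 8 tested, 2 rose (Siglecf and Ccr3, by 0.43) and 1 fell (Il5ra). Of 22 lineage transcription factors, 7 rose and 7 fell. Myb, a factor of progenitors, and Hes1, a Notch target, both fell by 1.03, the Ikaros family gene Ikzf2 fell by 1.02 and Gata2 by 0.73, while Cebpb (0.71) and Runx1 (0.69) rose. After median scaling 4 were higher and 3 lower, and Gata2 was not called.

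Havcr2, the gene of TIM-3 itself, rose. It was at 16.21, 16.28, 16.28 and 16.28 in activated cells, against 14.59, 14.68, 14.60 and 14.58 in resting cells, both treated with the antibody against its product. The change of 1.65 ± 0.06 (SE, adjusted p = 7.63e-12) is a 3.14-fold rise. Of 17 members of the list of TIM family genes, inhibitory receptors and ligands, 8 rose and 3 fell. The checkpoint gene Vsir (VISTA) rose 2.85-fold, and the PD-1 ligand genes Pdcd1lg2 and Cd274 rose by 1.24 and 1.10. Ceacam1, a ligand described for TIM-3, rose by 0.81. The TIM-3 ligand gene Lgals9 and Havcr1, which encodes TIM-1, were at −0.24 and 0.09 and were not called. Lair1, an inhibitory collagen receptor, fell by 0.69, and after median scaling 7 members were higher and 0 lower.

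Genes of cholesterol and fatty acid synthesis rose in 17 of 29 and fell in 4 (median 0.66). Cyp51, of the late steps of cholesterol synthesis, was at 11.72, 11.72, 11.62 and 11.45 in activated cells, against 9.89, 10.11, 10.23 and 9.93 in resting cells (3.00-fold, adjusted p = 2.22e-09). The desaturase genes Scd1 and Scd2, Hsd17b7, Sc5d and the squalene synthase gene Fdft1 rose by 1.05 to 1.33, while Dhcr7 and Elovl6 fell by 0.35 and 0.62. After median scaling 17 were higher and 0 lower. Genes of the ATF4 and unfolded protein response rose in 13 of 27 and fell in 3. Chac1, which degrades glutathione, rose 5.59-fold, the cystine transporter gene Slc7a11 rose by 1.60 and the pseudokinase gene Trib3 by 1.16, whereas the mTOR inhibitor gene Ddit4 fell 2.61-fold. The chaperone gene Hspa5 and Herpud1, of protein degradation at the endoplasmic reticulum, rose by 0.48 and 0.33. Ddit3, Xbp1 and Dnajb9 were at 0.11, −0.01 and 0.16 and were not called, although Dnajb9 was called after loess and, with 0.31, as the mean over all kept probes. After median scaling 9 members of the list were higher and 1 lower, and Herpud1 was not called. Among stress genes, of which 10 of 25 rose and 3 fell (9 and 0 after median scaling), Hspa1a (2.20), the sulfiredoxin gene Srxn1 (2.05) and the haem oxygenase gene Hmox1 (1.57) stood out. Glycolysis genes gave 3 rises and 14 small falls of 25, or 3 and 0 after median scaling, with Ndrg1 (1.91) and Pfkfb3 (1.72) the largest rises. Of 24 interferon response genes, 1 was called higher (Gbp3, 0.95, not called without any one of resting replicates 2 and 3 or activated replicates 1 and 4) and 1 lower (Irf1, −0.49). Irf1 lost its call under median scaling, which called 1 member higher and 0 lower, and without the arrays numbered 2, which called 0 and 0. Of 29 ribosomal protein genes 0 rose and 4 fell (0 and 0 after median scaling), all 29 between −0.22 and 0.16, and the list's median turned to 0.30 under median scaling.

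Genes of the cell cycle fell together. Of 29 DNA replication genes, 28 fell and 1 rose (median −0.83), and of 27 mitosis genes 26 fell (median −1.15), against 30.8% of all genes lower. Of the mitosis genes, 2 passed the filter only through the resting arrays, which favoured their fall. After median scaling 17 and 22 were lower. Mki67, the proliferation marker, was at 10.59 ± 0.17 in activated cells, against 12.08 ± 0.17 in resting cells (SD, n = 4 each), and 2.79-fold lower (limma's adjusted p = 3.91e-09). The mitotic kinase gene Plk1 and the cyclin gene Ccna2 fell by 1.63 and 1.49. Mcm7, a subunit of the replicative helicase, was at 10.93, 10.97, 11.06 and 10.91 in activated cells, against 12.62, 12.51, 12.57 and 12.37 in resting cells (2.92-fold lower, adjusted p = 9.92e-12). Pcna, the sliding clamp used in replication and repair, was the 1 member that rose (0.61, adjusted p = 1.51e-06), and Kif23 was not called. Of 22 genes of the G1 phase, 6 rose and 11 fell, or 4 and 5 after median scaling. The CDK inhibitor genes Cdkn2b, Cdkn1a (p21) and Cdkn2a rose by 1.40, 1.09 and 0.78 and the cyclin gene Ccnd2 by 0.65, while E2f1, E2f2 and the retinoblastoma relatives Rbl1 and Rbl2 fell by 0.96, 0.99, 1.15 and 1.16.

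The largest falls among genes measured in the same way in both groups included this programme and others. Depdc1b, which is expressed in dividing cells, was at 8.65, 8.92, 8.69 and 8.49 in activated cells, against 11.05, 11.30, 10.91 and 10.94 in resting cells (5.14-fold lower, adjusted p = 9.92e-12). The centromere gene Cenpf fell 3.47-fold. Erg, an ETS transcription factor of blood progenitors and endothelium, was at 10.91, 10.88, 10.82 and 10.80 in activated cells, against 12.86, 13.15, 12.83 and 12.99 in resting cells (4.31-fold lower, adjusted p = 8.62e-11). Pik3ip1, an inhibitor of phosphatidylinositol 3-kinase, fell 3.95-fold, and Fbxo31, a component of a ubiquitin ligase, fell 3.92-fold. Rwdd3, Mns1, Shisa2, the sterol-binding protein gene Osbpl5, the progestin receptor gene Paqr7 and the vesicle traffic gene Sec22c fell 3.42-fold to 3.87-fold. Genes lost below background in activated cells were dim in resting cells too: Nxpe2 was at least 2.02-fold lower, and Nxpe5, the integrin gene Itgb6, the interleukin 5 receptor gene Il5ra, Phlda2, the spindle checkpoint kinase gene Ttk, Catsperg2 and Ldhc had bounds of 1.36-fold to 1.56-fold. The groups overlapped for Catsperg2, whose call was lost under median scaling and when only the arrays at 2 h were fitted.

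Secreted and survival signals of other pathways responded as well. In the activin and TGF-beta list 9 of 20 rose and 7 fell, or 7 and 0 after median scaling. Beside Fst, the activin chain gene Inhba rose by 3.88. Among 21 apoptosis genes 8 rose and 7 fell, or 8 and 1 after median scaling. Phlda1 rose 8.25-fold and the death receptor gene Fas 5.22-fold. The anti-apoptotic Bcl2l1 and Bcl2 rose by 1.02 and 0.91, as did the pro-apoptotic Pmaip1 and Bcl2l11 by 0.90 and 0.89, and the pro-apoptotic Bmf fell 2.43-fold. In the list of actin and adhesion genes, 11 of 37 rose and 8 fell, or 8 and 1 after median scaling. Marcksl1, an actin-binding substrate of protein kinase C, rose by 3.81, the matrix protein gene Spp1 by 2.39 and the integrin genes Itgav and Itga5 by 0.97 and 0.90.

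Some genes gave different values on probes that the array files annotate to different transcript variants. These genes were picked out after their values were seen. Of 220 genes with kept probes for more than 1 variant, 8 had every probe of one variant at least 2-fold apart in its change from every probe of another. For Il1rl1, which encodes the interleukin 33 receptor ST2 in a membrane-bound and a soluble form, the probe for variant 1 did not pass the test. It was at 17.35, 17.38, 17.22 and 17.34 in activated cells, against 17.44, 17.26, 17.46 and 17.35 in resting cells (−0.05, adjusted p = 0.463). The first of 2 probes for variant 2 was at 15.86, 16.00, 16.05 and 16.03 in activated cells, against 13.91, 14.11, 14.35 and 14.10 in resting cells (1.87, adjusted p = 2.35e-11), and the second probe rose by 1.70. For Nfatc1, a calcium-regulated transcription factor with an autoregulated short isoform, the probe for variant 1 was at 11.14, 11.32, 11.09 and 11.35 in activated cells, against 9.09, 8.80, 9.15 and 8.81 in resting cells (2.26, adjusted p = 1.62e-10), and that for variant 2 did not pass (−0.14, adjusted p = 0.116). The variant 1 probe of Rgs3 rose by 2.20, against 0.40 to 0.60 on 4 probes for variant 2. Bcat1, which degrades branched-chain amino acids, rose by 3.02 on variant 1 and 0.53 on variant 2. The variant 2 probe was dim, with means of 6.82 in activated and 6.29 in resting cells, and well above background on 0 resting arrays. Its value is therefore limited by the background. Cstf3, a cleavage factor of mRNA ends, fell by 0.90 on variant 1 and rose by 0.70 on variant 3, and the diacylglycerol kinase gene Dgki fell by 0.56 on variant 1 and rose by 0.73 on variant 2. Gabpb1 and Tanc2 each rose on 1 probe (1.12 and 1.38) and were not called on the other. The annotation is that of the array design, and whether a probe also binds the other variants was not tested.

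**Figure D4:**
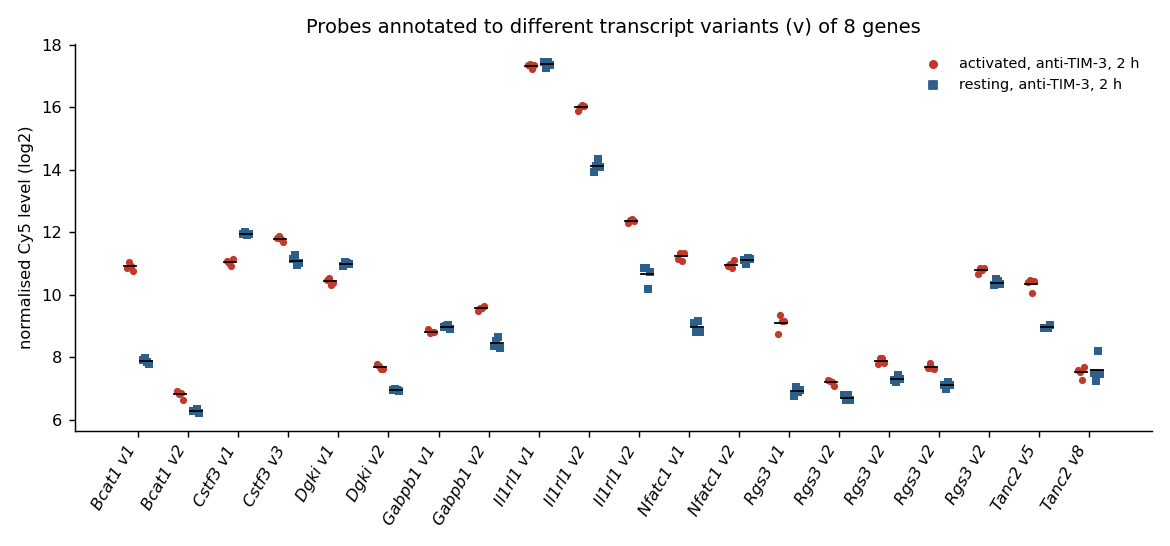
Normalised Cy5 level (y axis, log2) of each probe of the 8 genes whose transcript variants (v, number as annotated) differed, with activated arrays as red circles left of resting arrays as blue squares and black bars at the means (n = 4 each). The variant 1 probe of Il1rl1 overlaps between the groups, while both variant 2 probes lie higher in activated cells.

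Markers of other cell types gave no common movement. Of 7 neutrophil markers tested, 2 rose (S100a9 by 0.93 and S100a8 with a bound of 1.19-fold, neither called without the arrays numbered 2), and Elane, Camp, Ngp, Lcn2, Retnlg and Mmp9 stayed at background throughout. Of 12 lymphocyte markers 3 rose and 1 fell, among them Il7r (1.10) and Lck (0.92). Of 9 erythroid and platelet markers 1 rose (Epor, 1.30) and 1 fell, and of 6 stromal markers 0 rose and 2 fell. After median scaling 1 neutrophil, 2 lymphocyte, 1 erythroid or platelet and 0 stromal markers were higher and 0 of any of these lists lower. The part of such cells in the results was not tested. With the macrophage marker level as a covariate, chosen after seeing the data, 2957 genes were higher and 5224 lower, and 2517 and 4504 without the arrays numbered 2, where those markers were lowest.

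The same comparison in the Cy3 channel gave the antigen response of IgG-treated cells on the same arrays. It called 7172 of 16542 genes (43.4%), 2812 higher (17%) and 4360 lower (26.4%). These genes were kept by their Cy5 signal at 2 h, so genes above background only in Cy3 were not tested. The difference between the responses, tested per array as Cy5 minus Cy3, was called in 1959 of 16541 genes (11.8%), 812 with a higher (4.91%) and 1147 with a lower value under anti-TIM-3 (6.93%). The genes named here were called in the response at 2 h and well above background on at least 3 arrays of each group and dye, which leaves out Csf2 (difference 3.51). At least 2-fold differences were all in one direction, 68 higher (0.411%) and 0 lower (0). No array exchanged the dyes, so the antibody and a different response range of the dyes cannot be told apart here. The number of calls rested on the processing, with 729 to 1305 under 5 other settings and 1264 without activated replicate 4. Median scaling called 674 higher and 124 lower here, and 1154 higher and 668 lower in IgG-treated cells. Tnf, with a response of 3.90 in anti-TIM-3-treated cells against 1.46 in IgG-treated cells, differed by 2.44 ± 0.09 (SE, adjusted p = 4.80e-12). Ptgs2 (5.02 against 2.58), Ccl4 (4.57 against 2.14), Hbegf (4.50 against 2.13) and Hey1 (4.80 against 2.50) differed by 2.30 to 2.44. Il6 responded by 2.45 in anti-TIM-3-treated cells, against 0.25 in IgG-treated cells, where it was at 13.17, 13.22, 13.14 and 12.93 after activation and 12.70, 12.96, 12.84 and 12.95 at rest. Its difference was 2.20 (adjusted p = 5.29e-12).

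Differences in the other direction were smaller. The linker histone gene H1f2 had −0.51 with anti-TIM-3 against 0.31 with IgG (difference −0.83, adjusted p = 1.41e-07), and the heparan sulphate enzyme gene Hs6st1 had −1.16 against −0.41 (−0.75). H1f2 had a Cy5 value on only 3 activated arrays. Median scaling did not call its response with anti-TIM-3 (−0.25). Fcer1a had −0.53 against 0.19, which was not called (−0.72, adjusted p = 0.0126), a call that median scaling and the processed signal did not give. Rgs12 and Myb differed by −0.64 and −0.61. Crebl2 differed by −0.69, a call lost under 4 other settings, without any one of 4 arrays and without the arrays numbered 2. Havcr2 responded by 1.65 with anti-TIM-3, against 1.03 with IgG, a difference of 0.62 ± 0.08 (SE, adjusted p = 3.15e-05). By list, the cytokine median was 1.54 against 0.80 and 22 of 29 differences were called higher, against 4.91% of all genes. Of the 29, 8 passed the filter only through the activated Cy5 arrays, which favoured a higher response in Cy5. The mitosis median was −1.15 against −0.91 with 16 of 27 differences lower, against 6.93% of all genes. In that list 2 members passed only through the resting Cy5 arrays, which favoured a fall in Cy5. The cholesterol median was 0.66 against 0.70 with 1 difference higher and 3 lower.

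At 16 h the response of anti-TIM-3-treated cells called 3224 of 16542 genes (19.5%), 1536 higher (9.29%) and 1688 lower (10.2%). Genes and probes were chosen by their signal at 2 h, so genes above background only at 16 h were not tested. Median scaling called 234 higher and 87 lower at 16 h. The change of the response between the times was called in 6100 genes (36.9%), 3923 with a higher (23.7%) and 2177 with a lower value at 16 h (13.2%), or 283 and 678 after median scaling. Falls of at least 2-fold made up 454 of these (2.74%) and rises 309 (1.87%). Egr3 had −1.34 at 16 h against 4.04 at 2 h, and the difference of −5.37 ± 0.22 (SE, adjusted p = 4.68e-11) was past the threshold. Crtam had 0.86 at 16 h against 5.96 at 2 h, Hbegf 0.42 against 4.50, and Nr4a1 −0.81 against 3.81. Tnf had −0.52 at 16 h against 3.90 at 2 h, with 9.38, 9.26, 9.52 and 9.41 in activated cells at 16 h, against 9.97, 9.80, 10.08 and 9.77 in resting cells. Errfi1 had −0.33 at 16 h, which was not called, against 3.67 at 2 h.

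In the other direction, the 6 genes named here had a higher signed response at 16 h. Kcnd2, a potassium channel gene, had 2.44 at 16 h against −0.76 at 2 h (difference 3.20 ± 0.17 SE, adjusted p = 9.87e-10). Tnfrsf9 had 3.70 against 1.30, Fxyd6, a regulator of the sodium pump, 3.46 against 1.16, and the chemokine gene Ccl17 3.42 against 1.18. The gluconeogenic gene Fbp1 had 1.42 against −0.71, and Depdc1b −0.19, which was not called, against −2.36. Havcr2 had 0.48 at 16 h against 1.65 at 2 h (−1.17, adjusted p = 7.39e-08). The cytokine median was 0.08 at 16 h against 1.54 at 2 h, with 1 difference higher and 20 lower of 29, and the DNA replication median was −0.20 against −0.83, with 24 higher and 1 lower of 29. Over all genes, 23.7% of differences were higher and 13.2% lower. The filter at 2 h favoured the response at 2 h of the 8 cytokine genes that passed only through the activated arrays. Cholesterol genes had a median of 0.45 at 16 h, with 21 of 29 higher, against 0.66 at 2 h.

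**Figure D5:**
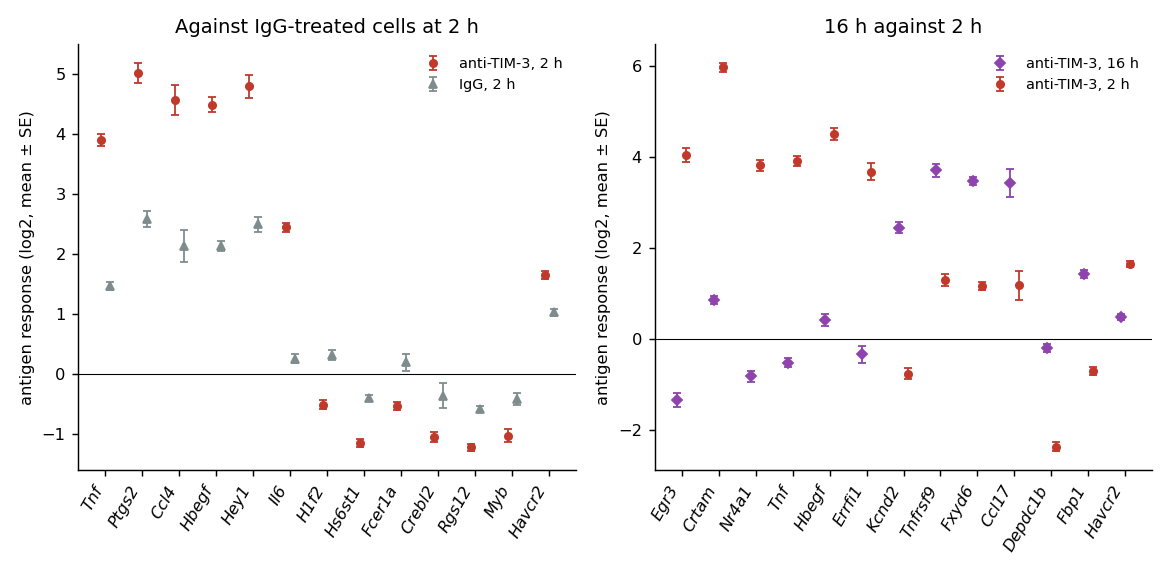
Antigen response (y axis, log2, mean ± SE, 4 arrays per group, but 3 activated Cy5 arrays for H1f2) of Havcr2 and of the genes with the largest tested differences each way among those called at 2 h and well above background on at least 3 arrays of every group used, a limit that leaves out Csf2. The left panel sets anti-TIM-3-treated cells (red circles) beside IgG-treated cells (grey triangles) at 2 h; the right panel sets 16 h (purple diamonds) beside 2 h (red circles) in anti-TIM-3-treated cells. Il6 had a response of 2.45 with anti-TIM-3 and 0.25 with IgG, and Egr3, Nr4a1 and Tnf lay below 0 at 16 h.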

How the data were processed

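RNA was hybridised to 16 two-colour Agilent arrays. The deposited values are the scanner intensities that the authors' Feature Extraction software (version 9.1.3.1 per the file headers) gave for each spot, with local background, not normalized between arrays. Here the Cy5 mean signals were background-corrected (normexp, offset 50), put on the log2 scale and quantile-normalized over 16 Cy5 channels. Control spots and outlier flags were left out. A probe was kept when well above background on at least 3 of 4 arrays of either group at 2 h, and the brightest kept probe stood for its gene (5688 genes had several kept probes). limma 3.58.1 in R 4.3.3 fitted 1 mean per group over 16 arrays, with Benjamini-Hochberg adjusted p-values over all genes. Probes were named through accession or symbol in RefSeq (22951 and 6659 probes), an older symbol (3109) or the file's own name (8455). On simulated data with 16293 genes, few of them changed, 97% of 2-fold changes in the antigen response at 2 h were recovered. The noise was normal and independent between arrays. Neither the normalization nor variation shared by same-numbered samples was simulated, so recovery in the real data was not tested. Where only activated or only resting arrays were above background, the fold is given as a lower bound: the dim side took, per array, the higher of its own value and the dimmest signal still above background. For most genes named by their bounds its own value was the higher, so the bound equals the estimate and carries its error.

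The text names the 12 largest rises and falls whose groups do not overlap, among genes well above background on at least 3 arrays of each group. It names the 8 largest bounds each way. It also names the 6 largest differences each way from IgG and from 16 h, among genes called at 2 h and well above background on at least 3 arrays of every group and dye used. Havcr2 and members of the gene lists complete the rule, and genes with provisional names were left out. Genes and lists were chosen with earlier results of these data known. Transcript variants were picked after their values were seen. Alternatives covered background, scaling, filters, arrays in the fit, slide, probe choice and single arrays.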

Additional observations from a re-analysis of the deposited data

Results flagged for a closer look

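The antigen response differed between antibodies in 1959 genes and between times in 6100, each by an interaction term in limma's fit. With anti-TIM-3 minus IgG, the differences were 2.44 for Tnf, 2.44 for Ptgs2, 2.43 for Ccl4, 2.36 for Hbegf, 2.30 for Hey1 and 2.20 for Il6. They were −0.83 for H1f2, −0.75 for Hs6st1, −0.72 for Fcer1a, −0.69 for Crebl2, −0.64 for Rgs12 and −0.61 for Myb. Havcr2 differed by 0.62. At 16 h minus 2 h, the differences were 3.20 for Kcnd2, 2.40 for Tnfrsf9, 2.30 for Fxyd6, 2.25 for Ccl17, 2.17 for Depdc1b and 2.13 for Fbp1. They were −5.37 for Egr3, −5.10 for Crtam, −4.63 for Nr4a1, −4.42 for Tnf, −4.08 for Hbegf, −4.00 for Errfi1 and −1.17 for Havcr2.

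In 21 of 447 groups of 4 arrays, 1 array stood apart from the other 3 by Dixon's test, where chance gives about 1 in 20. Among activated arrays, replicate 4 stood apart for Cish (16.71), Ddc (12.28), Egr2 (14.83), Fdft1 (11.89) and Itgb6 (6.39). Activated replicate 1 did so for Dnajb9 (11.15) and Havcr2 (16.21), replicate 2 for Dhcr7 (11.77), Pim3 (11.18) and Scd1 (12.60), and replicate 3 for Rela (12.48) and Rgs12 (14.87). Among resting arrays, replicate 2 stood apart for Crabp2 (6.17), Csrnp1 (11.56), Dhcr7 (12.11) and Havcr2 (14.68). Resting replicate 3 did so for Aldh1a3 (6.42), Cebpb (13.85) and Il5ra (6.78), and replicate 1 for Gata2 (16.44) and Mki67 (12.33). All are normalised Cy5 levels (log2).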

How the results depend on the processing

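Of 5523 values of named genes recomputed under the alternatives, 5445 kept direction and call, 55 lost the call, 21 gained it and 2 turned: averaging all kept probes gave 1.17 for Il1rl1 and 1.06 for Nfatc1, whose probes disagree by transcript variant. Median scaling gave 2536 genes for the response with anti-TIM-3 at 2 h, 1822 with IgG, 798 for their difference, 321 at 16 h and 961 for 16 h minus 2 h. The difference from IgG numbered 976 after loess and Aquantile, 729 on Agilent's processed signal, 1251 when the 8 arrays at 2 h were normalized alone, 1305 when only they were fitted and 941 without the arrays numbered 2. The cause was not tested. Leaving out single arrays gave 7369 to 7648 genes for the response at 2 h, 6585 to 7133 with IgG, 1264 (without activated replicate 4) to 1911 for the difference, 2250 to 3420 at 16 h and 5629 to 6270 for the times. Same-numbered samples deviated together in 3 of 4 numbers (r = 0.44, 0.47 and 0.27) and not clearly in number 3 (0.09), so the numbers were not taken as pairs, although 3 of 4 activated arrays correlated best with the resting array of their own number. The summed macrophage markers also followed the number: in every group, at both times, number 2 was lowest and number 3 next. The main fit leaves such shared variation in its spread, so it can miss genes that a block for the number calls. The replicate block called 8740 genes in the response at 2 h and added calls for Ccl22, Cma1, Cpa3, Cxcl10, Cxcl11 and Rela; Cxcl10 was also called with the macrophage marker level as a covariate.

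List medians that turned positive under median scaling were 0.052 (Fc-epsilon-RI), 0.20 (Myc and ribosome biogenesis), 0.13 (apoptosis), 0.17 (calcineurin and NFAT), 0.044 (eicosanoid synthesis), 0.041 (glycolysis), 0.10 (granule exocytosis), 0.058 (stromal markers), 0.056 (macrophage markers), 0.0043 (erythroid and platelet markers), 0.076 (lymphocyte markers), 0.25 (mast cell markers) and 0.30 (ribosomal proteins). On the processed signal they were 0.028 (calcineurin), 0.018 (exocytosis), 0.079 (mast cell markers), 0.13 (ribosomal proteins), 0.052 (Myc and ribosome biogenesis), 0.02 (apoptosis) and 0.006 (lymphocyte markers), and over all kept probes 0.11 (calcineurin). Signal near background limits the dim genes, for which only bounds are given.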
